A study of Homo sapiens with 6 samples.

Results

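Polycomb repressive complex 2 (PRC2) was followed through 10 of its genes, out of 18417 genes measured with a single-symbol probe set on the arrays. The genes are those of the core subunits EZH2, EZH1, SUZ12, EED and RBBP4, of the PRC2.1 subunits MTF2, PHF19 and PHF1, and of the PRC2.2 subunits JARID2 and AEBP2. Where a gene has several probe sets with a single symbol, the brightest on average would stand for it, but each of the 10 has only 1. RNA was measured on 6 Affymetrix Gene ST arrays of a stepwise model of human cell transformation, with 2 biological replicates of each of 3 cell lines. BJELM cells descend from BJEL cells and were transduced with a retrovirus that carries MYC fused to an estrogen receptor domain (pBabe-MYC-ER), and they grew with G-418, hygromycin, puromycin and, without interruption, 4-hydroxytamoxifen. BJEL cells descend from BJ cells, carry hTERT and the SV40 early region with its large T and small t antigens, and grew with G-418 and hygromycin. BJ cells are primary foreskin fibroblasts without introduced genes. All cells grew in a mixture of DMEM and M199 with fetal calf serum. Introduced genes and selection drugs came together in each line, so that their effects cannot be told apart.

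PRC2 places methyl groups on lysine 27 of histone H3, a mark of silenced developmental genes, and EZH2 or EZH1 is its catalytic subunit. SUZ12 is the scaffold, EED binds the trimethylated mark and stimulates the enzyme, and RBBP4 contacts histones. The Polycomb-like proteins MTF2, PHF19 and PHF1 bring the PRC2.1 form to CpG islands, while JARID2 and AEBP2 define the PRC2.2 form. EZH2 is the catalytic subunit of dividing cells and is a textbook target of the RB and E2F pathway, which SV40 large T antigen disturbs by binding RB, whereas EZH1 is also expressed in resting cells.

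Values are log2 signals, in which 1 unit is a doubling, and changes are log2 fold changes ± SE from limma with Benjamini-Hochberg adjustment over all 18417 genes (n = 2 arrays per cell line). The words rose and fell are used for changes of at least 2-fold with an adjusted p under 0.05. A gene past the adjusted p alone is given as higher or lower under the fold minimum. With so few arrays an exact permutation test of a single gene cannot go below p = 0.333. Arrays of bulk RNA cannot tell a shift in the cells present from a shift in RNA per cell.

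TERT had log2 signals of 10.84 and 10.78 in BJELM, 10.71 and 10.97 in BJEL, and 7.77 and 7.88 in BJ. MYC had 9.57 and 8.90 in BJELM, 10.22 and 10.12 in BJEL, and 9.47 and 9.61 in BJ, so its signal went against the label BJELM, and the text speaks of arrays labelled BJELM for that reason. CCND2, a textbook MYC target, had 10.75 and 11.08 on the arrays labelled BJELM, 5.16 and 5.33 in BJEL, and 5.95 and 5.53 in BJ. Array medians lay between 6.37 and 6.46, and arrays correlated at 0.992 to 0.995 within a cell line and at 0.943 to 0.981 between lines, across genes that are not independent. The fibroblast markers VIM and FN1 stayed bright in every line, with VIM between 12.87 and 13.07 and FN1 between 12.59 and 13.46, although 9 of 12 fibroblast markers fell on the arrays labelled BJELM and 6 of 12 fell in BJEL, each against BJ. Of all 18417 genes, 866 fell on the arrays labelled BJELM and 421 in BJEL, each against BJ. None of the epithelial, endothelial or leukocyte markers measured was called by limma in any comparison. At most 1 of each list had an unadjusted p under 0.05 in any 1 comparison. Such a p was found for 5638 of all 18417 genes in BJEL against BJ. On the arrays labelled BJELM it was found for 6873 genes against BJ and 4687 against BJEL. In BJEL against BJ, 1 of 8 epithelial and 1 of 6 endothelial markers were lower past the adjusted p, under the fold minimum. Of all 18417 genes, 1313 were lower past the adjusted p there, with no fold minimum. The epithelial marker KRT18 was bright, with 11.46 and 10.95 on the arrays labelled BJELM, 11.16 and 10.74 in BJEL, and 12.15 and 11.70 in BJ. Of 4 melanocyte markers, 1 fell on the arrays labelled BJELM against BJ.

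The sequence before the transcription start of 5 of the 10 genes is shown, because these 5 genes hold a word of the E2F type within 250 bases before or 50 bases after the start. The stretches are the 250 bases before the start annotated by RefSeq (GRCh38.p14), 5′ to 3′ on the strand of the gene, and capitals mark every match to a searched word.
EZH2, chr7:148884292-148884541, minus strand: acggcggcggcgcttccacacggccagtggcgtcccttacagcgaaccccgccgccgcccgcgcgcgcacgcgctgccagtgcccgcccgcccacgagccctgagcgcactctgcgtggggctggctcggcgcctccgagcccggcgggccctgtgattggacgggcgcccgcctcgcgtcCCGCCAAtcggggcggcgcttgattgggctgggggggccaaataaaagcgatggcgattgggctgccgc
EZH1, chr17:42745041-42745290, minus strand: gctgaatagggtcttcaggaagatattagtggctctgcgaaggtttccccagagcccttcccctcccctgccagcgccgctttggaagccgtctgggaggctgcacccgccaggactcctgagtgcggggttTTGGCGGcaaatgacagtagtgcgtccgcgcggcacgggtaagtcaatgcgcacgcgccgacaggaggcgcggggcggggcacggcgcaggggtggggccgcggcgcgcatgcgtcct
SUZ12, chr17:31936757-31937006, plus strand: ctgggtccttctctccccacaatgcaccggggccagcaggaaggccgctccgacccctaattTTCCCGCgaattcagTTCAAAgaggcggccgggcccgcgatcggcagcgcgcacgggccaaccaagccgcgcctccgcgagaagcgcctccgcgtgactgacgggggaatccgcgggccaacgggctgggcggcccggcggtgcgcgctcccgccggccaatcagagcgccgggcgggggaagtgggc
RBBP4, chr1:32650958-32651207, plus strand: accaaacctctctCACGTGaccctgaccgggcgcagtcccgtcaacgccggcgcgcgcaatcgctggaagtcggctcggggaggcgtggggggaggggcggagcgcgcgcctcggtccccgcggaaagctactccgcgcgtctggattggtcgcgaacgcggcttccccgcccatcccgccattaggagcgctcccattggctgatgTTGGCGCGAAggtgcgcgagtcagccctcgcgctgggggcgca
MTF2, chr1:93079033-93079282, plus strand: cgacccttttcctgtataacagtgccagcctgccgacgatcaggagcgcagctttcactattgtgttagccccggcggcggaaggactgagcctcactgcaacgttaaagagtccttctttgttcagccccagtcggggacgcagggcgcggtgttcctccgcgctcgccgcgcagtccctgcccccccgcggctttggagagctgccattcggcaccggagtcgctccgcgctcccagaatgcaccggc

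The E2F-type words searched on both strands were TTCGCGC, the variants with the letters TTGGCGC or with the letters TTCCCGC, and a further variant, TTGGCGG, beside the word TTTGAA of the cell cycle homology region and CACGTG, the E-box that MYC and other factors bind. At least 1 E2F-type word was present in 5 of 10 PRC2 promoters, in 15 of the 22 promoters found for the 28 E2F and proliferation genes, and in 14.0% of all 27305 promoters of the same length. These shares were not matched for base composition. The 250 bases before the start held 64.4% to 75.6% G or C and 25 to 38 CpG in the 5 genes with a word. The other 5 had 51.2% to 75.6% and 11 to 23 CpG, and the medians of all promoters were 58.0% and 11. In EZH2, TTGGCGG lay 69 bases before the start and TTGGCGC 2 bases after it. In EZH1, whose signal was not higher in the derived lines, TTGGCGG lay 118 bases before the start. SUZ12 had TTCCCGC 188 bases and TTTGAA 173 bases before the start. In RBBP4, TTCGCGC and TTGGCGC overlapped each other 40 and 43 bases before the start, and CACGTG lay 237 bases before it. The match of MTF2, TTCCCGC, lay 5 bases after the start, outside the stretch printed. TTTGAA was found in 15.4% and CACGTG in 7.43% of all promoters, and the single E2F-type words in 2.3% to 6.56%. The windows of EED, PHF19, PHF1, JARID2 and AEBP2 held none of these words. A single start was searched for each gene, and for PHF19, PHF1 and AEBP2 it lies inside the span of the gene. Other starts of these genes were not searched. A match describes the letters of the window only.

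**Figure D1:**
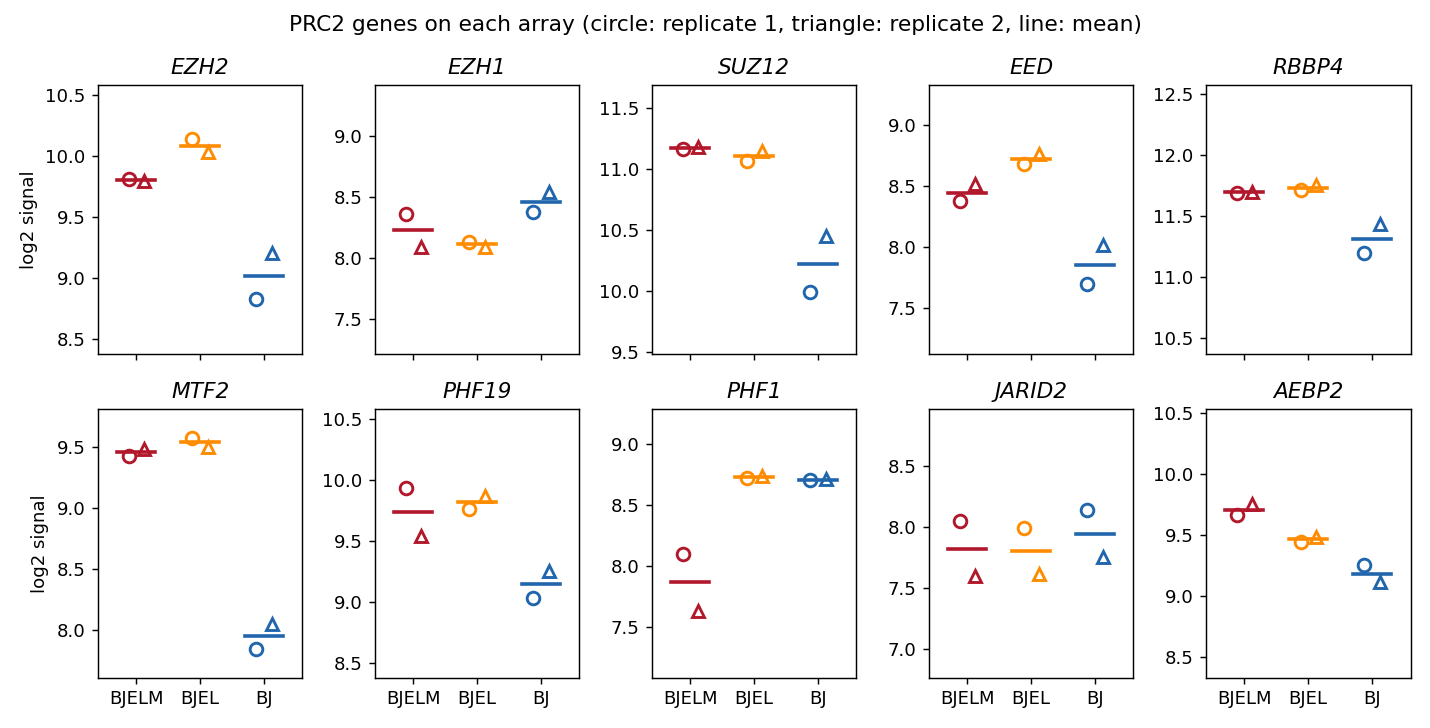
Log2 signal (vertical axis) of the 10 PRC2 genes on the arrays of BJELM, BJEL and BJ (horizontal axis), with circles for replicate 1, triangles for replicate 2 and lines for the mean of the 2 arrays; each panel spans the same number of log2 units. The MTF2 signals of BJELM and BJEL lie between 9.43 and 9.58 and those of BJ at 7.84 and 8.05, while the JARID2 signals of the 3 lines overlap.

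In the immortalized BJEL cells the core genes EZH2, SUZ12, EED and RBBP4 and the Polycomb-like genes MTF2 and PHF19 were higher than in BJ, with MTF2 changed most and EZH2 next. In BJEL against BJ, 2 of 10 PRC2 genes rose and none fell, where 5.18% of all genes were called and 2.89% rose. At an adjusted p under 0.05 without the fold minimum, 6 of 10 were higher and 0 lower, where 17.5% of all genes passed and 10.4% were higher. That count was between 3 and 5 with 1 array left out, and without BJEL replicate 1 or BJEL replicate 2 it was 3, EZH2, EED and MTF2. The median change of the 10 genes was 0.55, against -0.02 over all genes. On the arrays labelled BJELM against BJ, 1 of 10 rose and none fell, where 8.79% of all genes were called and 4.09% rose. There 7 of 10 were higher and 1 lower without the fold minimum, where 15.1% of all genes were higher and 13.1% lower, and the median change was 0.56, against 0.01 over all genes. With 1 array left out between 4 and 6 were higher and 0 or 1 lower, and the 4 without BJ replicate 1 were EZH2, SUZ12, MTF2 and AEBP2. Both comparisons share the BJ arrays, so they are not independent of each other.

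EZH2 (Entrez 2146, probe set 8143663, chromosome 7) had log2 signals of 9.81 and 9.79 on the arrays labelled BJELM, 10.14 and 10.03 in BJEL, and 8.82 and 9.21 in BJ. Both derived lines lay above both BJ arrays, and the BJEL arrays were the highest. EZH2 rose by 1.07 ± 0.14 in BJEL against BJ, which is 2.10-fold (adjusted p = 0.00469). It was higher by 0.79 ± 0.14 on the arrays labelled BJELM against BJ, under the fold minimum (adjusted p = 0.0079). The call in BJEL ended without BJ replicate 1, where the change was 0.88 (adjusted p = 0.0184), and after a new quantile normalization, which put the change just under 2-fold at an adjusted p of 0.00682.

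EZH1 (Entrez 2145, probe set 8015685, chromosome 17), the alternative catalytic subunit, had 8.36 and 8.09 on the arrays labelled BJELM, 8.13 and 8.09 in BJEL, and 8.38 and 8.54 in BJ. Both BJ signals were above all others, only narrowly so over BJELM replicate 1. The change was -0.23 ± 0.12 on the arrays labelled BJELM (adjusted p = 0.219) and -0.35 ± 0.12 in BJEL (adjusted p = 0.102), each against BJ, and neither passed the test. With quantile normalization the change in BJEL was -0.43 at an adjusted p of 0.0399, under the fold minimum. The change of EZH2 minus the change of EZH1, a within-array difference given without a test, was 1.02 ± 0.14 on the arrays labelled BJELM and 1.42 ± 0.14 in BJEL, each against BJ. On the arrays labelled BJELM against BJEL that difference was -0.40 ± 0.14.

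SUZ12 (Entrez 23512, probe set 8006325, chromosome 17) had 11.16 and 11.18 on the arrays labelled BJELM, 11.07 and 11.15 in BJEL, and 9.99 and 10.45 in BJ. The 4 arrays of the derived lines stood close together without overlap between the lines, and the gap between the BJ replicates was wider than the range of those 4. SUZ12 was higher by 0.95 ± 0.15 on the arrays labelled BJELM (adjusted p = 0.00584) and by 0.89 ± 0.15 in BJEL (adjusted p = 0.0129), each against BJ and under the fold minimum. Without BJ replicate 2 the changes were 1.18 on the arrays labelled BJELM and 1.12 in BJEL, past both thresholds (adjusted p = 0.00377 and 0.00661). In BJEL the adjusted p was 0.0669 without BJEL replicate 1 and 0.0679 without BJEL replicate 2. The genome holds a pseudogene of SUZ12, and probes that match both would read both.

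EED (Entrez 8726, probe set 7942914, chromosome 11) had 8.37 and 8.52 on the arrays labelled BJELM, 8.68 and 8.76 in BJEL, and 7.69 and 8.02 in BJ. Like EZH2, it was highest in BJEL and lowest in BJ, and the 3 lines did not overlap. EED was higher by 0.59 ± 0.13 on the arrays labelled BJELM (adjusted p = 0.0181) and by 0.86 ± 0.13 in BJEL (adjusted p = 0.0079), each against BJ and under the fold minimum. Without BJ replicate 2 the change in BJEL was 1.03 (adjusted p = 0.0106). The adjusted p on the arrays labelled BJELM was 0.0848 without BJ replicate 1 and 0.0791 without BJELM replicate 2.

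RBBP4 (Entrez 5928, probe set 7899813, chromosome 1), a histone chaperone that other chromatin complexes share, had 11.69 and 11.70 on the arrays labelled BJELM, 11.71 and 11.75 in BJEL, and 11.20 and 11.43 in BJ. The lowest signal of the derived lines was above the highest of BJ. The change was small, at 0.38 ± 0.10 on the arrays labelled BJELM (adjusted p = 0.0374) and 0.42 ± 0.10 in BJEL (adjusted p = 0.0402), each against BJ. The adjusted p passed in both comparisons without BJ replicate 2, but with any other array left out it was between 0.0686 and 0.196 on the arrays labelled BJELM and between 0.0567 and 0.201 in BJEL. RBBP4 has processed pseudogenes, which its probes may also read.

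**Figure D2:**
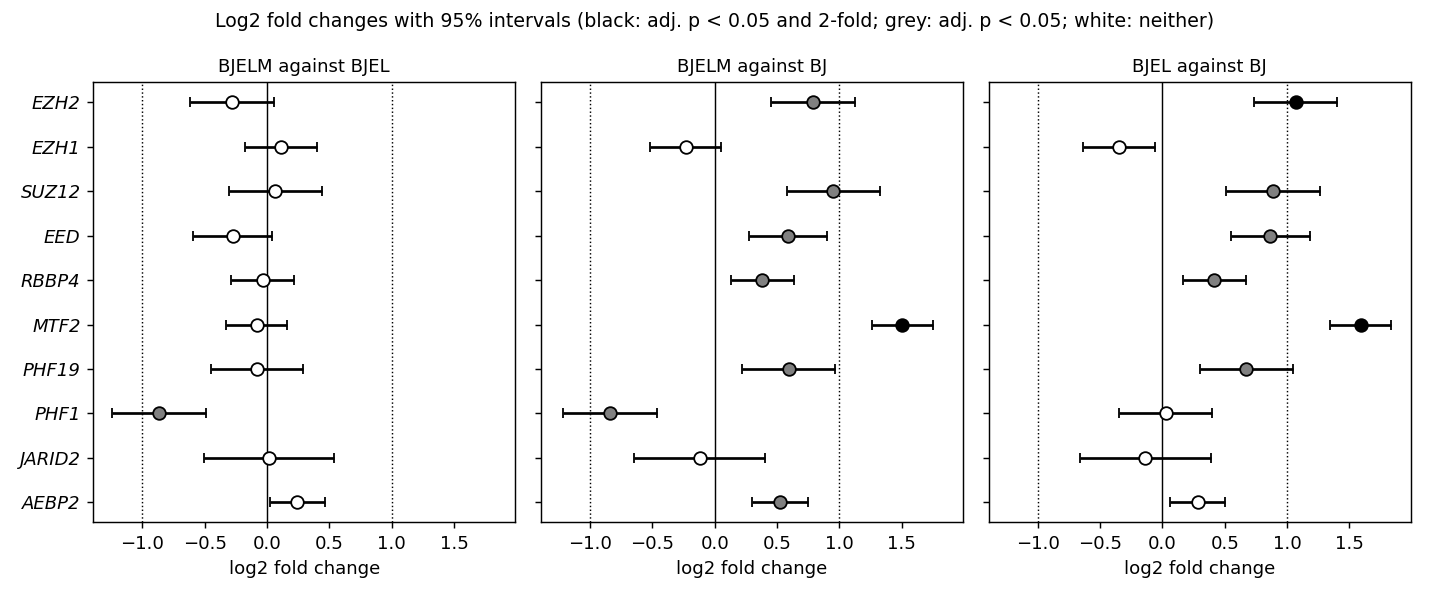
Log2 fold change (horizontal axis) of the 10 PRC2 genes (vertical axis) for the arrays labelled BJELM against BJEL, the arrays labelled BJELM against BJ, and BJEL against BJ, with bars for the 95% confidence interval of the limma fit and dotted lines at 2-fold; black points passed both thresholds, grey points the adjusted p alone, white points neither. MTF2 stands at 1.51 and 1.59 in the comparisons with BJ, EZH2 passes 2-fold in BJEL only, and PHF1 lies at -0.87 and -0.84 in the comparisons of the arrays labelled BJELM.

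The PRC2.1 genes did not move as a group, since MTF2 rose, PHF19 was higher under the fold minimum, and PHF1 was lower on the arrays labelled BJELM. MTF2 (Entrez 22823, probe set 7903032, chromosome 1) binds unmethylated CpG-rich DNA and has been studied mostly in embryonic stem cells. It had log2 signals of 9.43 and 9.48 on the arrays labelled BJELM, 9.58 and 9.50 in BJEL, and 7.84 and 8.05 in BJ. All 4 arrays of the derived lines were more than 1 log2 unit above both BJ arrays. MTF2 rose by 1.59 ± 0.10 in BJEL, which is 3.01-fold (adjusted p = 0.000734), and by 1.51 ± 0.10 on the arrays labelled BJELM, which is 2.84-fold (adjusted p = 0.000356), each against BJ. With each array left out in turn, the change was between 1.49 and 1.69 in BJEL and between 1.40 and 1.61 on the arrays labelled BJELM, and it was past both thresholds each time.

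PHF19 (Entrez 26147, probe set 8163807, chromosome 9), which recognizes methylated lysine 36 of histone H3, had 9.93 and 9.54 on the arrays labelled BJELM, 9.77 and 9.87 in BJEL, and 9.03 and 9.26 in BJ. The replicates labelled BJELM lay on either side of the BJEL replicates, and all 4 were above BJ. PHF19 was higher by 0.59 ± 0.15 on the arrays labelled BJELM (adjusted p = 0.0314) and by 0.67 ± 0.15 in BJEL (adjusted p = 0.0307), each against BJ and under the fold minimum. Leaving out any array of BJEL or of BJ put the adjusted p in BJEL between 0.0626 and 0.165. On the arrays labelled BJELM only the fit without BJELM replicate 2 kept it under the threshold among the fits with 1 array left out, and without BJ replicate 1 it was 0.167.

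PHF1 (Entrez 5252, probe set 8118682, chromosome 6), the third Polycomb-like gene, had 8.10 and 7.63 on the arrays labelled BJELM, 8.73 and 8.74 in BJEL, and 8.70 and 8.71 in BJ. The BJEL and BJ signals lay close together, and both arrays labelled BJELM were below them, replicate 2 farther than replicate 1. PHF1 was lower on the arrays labelled BJELM, at -0.84 ± 0.15 against BJ (adjusted p = 0.00932) and at -0.87 ± 0.15 against BJEL (adjusted p = 0.0215), both under the fold minimum. In BJEL against BJ the change was 0.03 ± 0.15 (adjusted p = 0.942), and its sign turned with quantile normalization, at -0.08. The arrays labelled BJELM decided whether the fold minimum was passed, since without BJELM replicate 1 PHF1 fell by 1.07 against BJ (adjusted p = 0.00255) and fell by 1.10 against BJEL (adjusted p = 0.00912). The adjusted p was 0.0518 against BJ without BJ replicate 1, and against BJEL it was 0.112 without BJEL replicate 1 and 0.0955 without BJEL replicate 2.

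Of the PRC2.2 genes, JARID2 passed the adjusted p in no comparison, while AEBP2 was higher on the arrays labelled BJELM against BJ. JARID2 (Entrez 3720, probe set 8116998, chromosome 6), a catalytically inactive relative of the JmjC demethylases that helps PRC2 bind chromatin, had 8.05 and 7.60 on the arrays labelled BJELM, 7.99 and 7.62 in BJEL, and 8.14 and 7.75 in BJ. The 3 lines overlapped, and replicate 1 was above replicate 2 in every line, by 0.45 on the arrays labelled BJELM, 0.38 in BJEL and 0.39 in BJ. The change was -0.12 ± 0.22 on the arrays labelled BJELM (adjusted p = 0.773) and -0.14 ± 0.22 in BJEL (95% interval -0.66 to 0.39, adjusted p = 0.73), each against BJ, and its sign turned with single arrays left out. AEBP2 (Entrez 121536, probe set 7954279, chromosome 12), a zinc finger protein that stabilizes PRC2, had 9.66 and 9.75 on the arrays labelled BJELM, 9.44 and 9.48 in BJEL, and 9.25 and 9.11 in BJ. Its signals stood in the order BJELM, BJEL and BJ without overlap. AEBP2 was higher by 0.52 ± 0.09 on the arrays labelled BJELM against BJ, which is 1.44-fold and under the fold minimum (adjusted p = 0.00777), with 0.28 ± 0.09 in BJEL against BJ (adjusted p = 0.0904) and 0.24 ± 0.09 between the derived lines (adjusted p = 0.164).

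The arrays labelled BJELM were then compared with BJEL, the step at which MYC-ER was introduced. Of the 10 PRC2 genes, 0 were called by limma, where 2.68% of all genes were called, 2 had an unadjusted p under 0.05, and the methods' t-test called 0. PHF1 alone was lower at an adjusted p under 0.05, where 6.28% of all genes were lower and 10.8% passed in either direction. The median change of the 10 genes was -0.06, against 0.03 over all genes. The change of MTF2 was -0.08 ± 0.10 (95% interval -0.33 to 0.16, adjusted p = 0.678) and that of EZH2 was -0.28 ± 0.14 (95% interval -0.62 to 0.05, adjusted p = 0.271). EED stood at -0.28 ± 0.13 (adjusted p = 0.255), EZH1 at 0.11 ± 0.12 (adjusted p = 0.619), SUZ12 at 0.06 ± 0.15 (adjusted p = 0.847), RBBP4 at -0.04 ± 0.10 (adjusted p = 0.875), PHF19 at -0.08 ± 0.15 (adjusted p = 0.802) and JARID2 at 0.02 ± 0.22 (adjusted p = 0.976). An interval that includes 0 does not show that the lines are alike.

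The signals of 9 of the 10 genes did not overlap in BJEL against BJ, 8 higher and 1 lower, where 61.2% of all genes did not overlap, 29.2% higher and 32% lower. They did not overlap for 9 genes on the arrays labelled BJELM against BJ, 7 higher and 2 lower, where 60.5% of all genes did not, 31.7% higher and 28.8% lower. Against BJEL this held for 7 genes, 2 higher and 5 lower, where 52.8% of all genes did not overlap, 28.8% higher and 24% lower.

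The BJ replicates differed in a way that runs along the members. BJ replicate 2 was above BJ replicate 1 for 8 of 10 PRC2 genes, with a median difference of 0.22, and for 25 of 28 E2F and proliferation genes, with a median difference of 0.28. Over all genes 7687 of 18417 were above, with a median difference of -0.03. Replicate 2 was above replicate 1 for 5 of 10 members on the arrays labelled BJELM and for 6 of 10 in BJEL. Leaving out BJ replicate 1 made most changes against BJ smaller and leaving out BJ replicate 2 made them larger, with 1 and 4 of 10 PRC2 genes risen in BJEL.

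**Figure D3:**
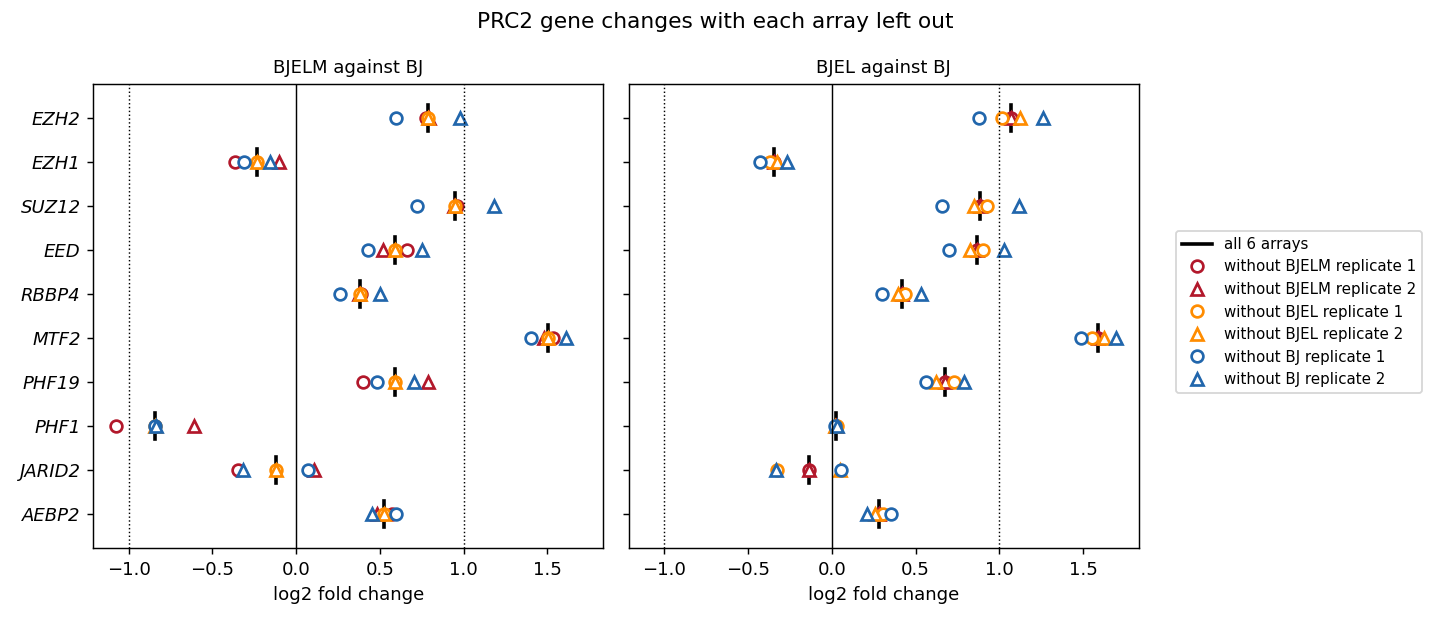
Log2 fold change (horizontal axis) of the 10 PRC2 genes (vertical axis) with each of the 6 arrays left out in turn, for the arrays labelled BJELM against BJ and for BJEL against BJ; black bars are the fit on all 6 arrays, the symbols name the array left out, and dotted lines mark 2-fold. MTF2 stays between 1.40 and 1.69 in both panels, whereas EZH2 in BJEL drops to 0.88 without BJ replicate 1.

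Genes of the E2F pathway and of DNA replication, which mark dividing cells, were higher in the same lines as EZH2 and MTF2. Of the 28 such genes measured, 14 rose and none fell in BJEL against BJ, where 2.89% of all genes rose. Without the fold minimum 23 of the list were higher, where 10.4% of all genes were, and the median change of the list was 0.98. Against the same BJ arrays, 10 of the list rose and none fell on those labelled BJELM, where 4.09% of all genes rose. Without the fold minimum 18 of the list were higher, where 15.1% of all genes were, and the median change of the list was 0.74. The median signal of the list was 10.58 and 10.43 on the arrays labelled BJELM, 10.83 and 10.64 in BJEL, and 9.53 and 9.71 in BJ. These medians stood in the same order of lines as EZH2 and EED. On the arrays labelled BJELM against BJ, the replicative helicase subunits MCM4 and MCM2 rose by 1.65 ± 0.14 and 1.61 ± 0.19 (adjusted p = 0.000707 and 0.00179). The E2F repressor E2F7 rose by 1.65 ± 0.20 in BJEL against BJ (adjusted p = 0.00357). Between the derived lines, 0 genes of the list rose and 1 fell, E2F8 at -1.22 ± 0.16 (adjusted p = 0.00837), with a median change of -0.31. Of all 18417 genes, 170 rose and 324 fell there. The E2F8 call ended without BJEL replicate 2, where the change was -1.16. Without BJ replicate 1 the number of the list that rose against BJ was 7 on the arrays labelled BJELM and 9 in BJEL, without BJELM replicate 1 it was 6 on the arrays labelled BJELM, and without BJ replicate 2 it was 19 in BJEL. The part of cell division in the PRC2 changes was not tested.

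The genes whose signals followed MTF2 and EZH2 most closely over the 6 arrays were sought among 2016 genes whose cell line means span at least 1 log2 unit. Among the members MTF2 and EZH2 reached that span, with SUZ12 next at 0.95. The signals of SLF1, a DNA repair factor, ERCC6L, a DNA translocase of mitosis, and CHAF1A had a Pearson r of 0.999 with MTF2. CHAF1A, the large subunit of a histone chaperone that deposits histones during replication, had 9.22 and 9.32 on the arrays labelled BJELM, 9.42 and 9.34 in BJEL, and 7.88 and 8.13 in BJ. For EZH2 the closest were NCAPG2, a condensin II subunit, with an r of 0.999, and FAM111B and FBXO5, each with an r of 0.997. FBXO5, an inhibitor of the anaphase-promoting complex, had 10.24 and 10.15 on the arrays labelled BJELM, 10.69 and 10.57 in BJEL, and 9.02 and 9.41 in BJ. The 6 points form 3 cell lines, so these values describe the pattern only.

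Genes of other PRC2 proteins gave 0 limma calls of 5 in each comparison, with 3 at an unadjusted p under 0.05 in BJEL against BJ, 4 on the arrays labelled BJELM against BJ and 2 against BJEL. Over all genes 5.18%, 8.79% and 2.68% were called in these comparisons. An unadjusted p under 0.05 was found for 5638, 6873 and 4687 of all 18417 genes. RBBP7, the close relative of RBBP4, was higher by 0.33 ± 0.09 on the arrays labelled BJELM (adjusted p = 0.0431) and by 0.42 ± 0.09 in BJEL (adjusted p = 0.0279), each against BJ. LCORL and LCOR, whose loci encode PRC2.1 partners, were higher by 0.79 ± 0.14 (adjusted p = 0.0129) and 0.65 ± 0.13 (adjusted p = 0.0229) in BJEL against BJ. EPOP, another PRC2.1 subunit, was higher on the arrays labelled BJELM by 0.66 ± 0.12 against BJEL (adjusted p = 0.0209) and by 0.42 ± 0.12 against BJ (adjusted p = 0.0405). EZHIP, an inhibitor of PRC2, stood at 0.01 ± 0.11 on the arrays labelled BJELM (adjusted p = 0.984) and at -0.04 ± 0.11 in BJEL (adjusted p = 0.865), each against BJ.

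Polycomb repressive complex 1 (PRC1) ubiquitinates histone H2A and, in its canonical form, binds the mark that PRC2 makes. Of the PRC1 genes, 18 with a single-symbol probe set were analysed. SCML2, a Polycomb protein found with PRC1, was the only one of them to rise in either comparison with BJ on all 6 arrays. Of all genes 2.89% rose in BJEL against BJ and 4.09% on the arrays labelled BJELM against BJ. The SCML2 signal was 7.05 and 6.77 on the arrays labelled BJELM, 7.80 and 7.57 in BJEL, and 5.42 and 5.71 in BJ. It rose by 1.34 ± 0.15 on the arrays labelled BJELM (adjusted p = 0.00171) and by 2.12 ± 0.15 in BJEL (adjusted p = 0.001), each against BJ. PCGF6, the defining subunit of a variant PRC1, was higher by 0.99 ± 0.14 on the arrays labelled BJELM (adjusted p = 0.00374) and by 0.82 ± 0.14 in BJEL (adjusted p = 0.0129), each against BJ and under the fold minimum, which it passed at 1.08 without BJELM replicate 2, at 1.03 with median centring and, in BJEL, at 1.01 without BJEL replicate 2. PCGF6 has 2 single-symbol probe sets, and these values come from the brighter on average. The median change of the 18 genes was 0.09 on the arrays labelled BJELM and 0.02 in BJEL, each against BJ, and 0.03 between the derived lines. Between those lines 0 of the 18 genes were called by limma, where 2.68% of all genes were. An unadjusted p under 0.05 was found there for 6 of the 18 genes and for 4687 of all 18417 genes.

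The list of enzymes that remove or oppose the PRC2 mark also held ASXL1, ASXL2 and ASXL3, which encode no enzymes. This list gave 0 calls of 14 in each comparison. An unadjusted p under 0.05 was found for 5 of its genes in BJEL against BJ and for 3 in each of the others. Of all genes 5.18% were called in BJEL against BJ, 8.79% on the arrays labelled BJELM against BJ and 2.68% against BJEL. In the same order, 5638, 6873 and 4687 of all 18417 genes had an unadjusted p under 0.05. The demethylase gene KDM6A had 8.08 and 7.96 on the arrays labelled BJELM, 8.78 and 8.46 in BJEL, and a mean of 8.06 ± 0.092 in BJ (SD, n = 2). The BJEL arrays were the highest, and the other lines overlapped. It was higher by 0.56 ± 0.13 in BJEL against BJ (adjusted p = 0.0342) and lower on the arrays labelled BJELM against BJEL, at -0.60 ± 0.13 (adjusted p = 0.0383), both under the fold minimum. Its paralog KDM6B stood at -0.11 ± 0.09 in BJEL against BJ (adjusted p = 0.453) and at 0.28 ± 0.09 between the derived lines (adjusted p = 0.11). NSD2, which methylates lysine 36 of histone H3, was higher by 0.55 ± 0.10 on the arrays labelled BJELM (adjusted p = 0.00829) and by 0.82 ± 0.10 in BJEL (adjusted p = 0.00364), each against BJ.

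Of 38 measured genes that are textbook targets of PRC2 silencing, 1 rose and 1 fell in BJEL against BJ, and 1 rose and 1 fell on the arrays labelled BJELM against BJ. Of all 18417 genes, 533 rose and 421 fell in BJEL against BJ. On the arrays labelled BJELM 753 of all genes rose and 866 fell against BJ, and 170 rose and 324 fell against BJEL. Between the derived lines 1 fell, with 0 without BJEL replicate 1 and 2 without BJELM replicate 1. The median change of the 38 target genes was -0.01 on the arrays labelled BJELM and -0.11 in BJEL, each against BJ, and 0.09 between the derived lines. Most of these target genes were dim, and over the 9 of 38 at or above the median level of all genes the median change was -0.35 on the arrays labelled BJELM and -0.19 in BJEL, each against BJ, and 0.11 between the derived lines. CDKN2A, which encodes the cell cycle inhibitors p16 and ARF, had 10.30 and 10.01 on the arrays labelled BJELM, 10.24 and 9.91 in BJEL, and 8.18 and 8.21 in BJ. It rose by 1.96 ± 0.15 on the arrays labelled BJELM (adjusted p = 0.000499) and by 1.88 ± 0.15 in BJEL (adjusted p = 0.00119), each against BJ, and its single probe set does not separate the transcripts. LHX9, a homeobox gene, had 8.11 and 7.10 on the arrays labelled BJELM, 9.67 and 9.43 in BJEL, and 9.81 and 9.75 in BJ. It fell by 2.17 ± 0.31 against BJ (adjusted p = 0.0036) and fell by 1.94 ± 0.31 against BJEL (adjusted p = 0.015), where the call ended without BJEL replicate 1 (adjusted p = 0.0949) or without BJEL replicate 2 (adjusted p = 0.0618). SIM1, a transcription factor gene, fell by 1.10 ± 0.17 in BJEL against BJ (adjusted p = 0.00921), a call that ended without BJ replicate 1 (adjusted p = 0.0622) and without BJEL replicate 1 or 2 (adjusted p = 0.0572 and 0.0511). Against BJ, the change of SIM1 on the arrays labelled BJELM was -0.97 ± 0.17 with an adjusted p of 0.00809, which missed the fold minimum but passed it at -1.02 without BJ replicate 2 and at -1.24 without BJELM replicate 1. Levels of the histone mark were not analysed here.

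**Figure D4:**
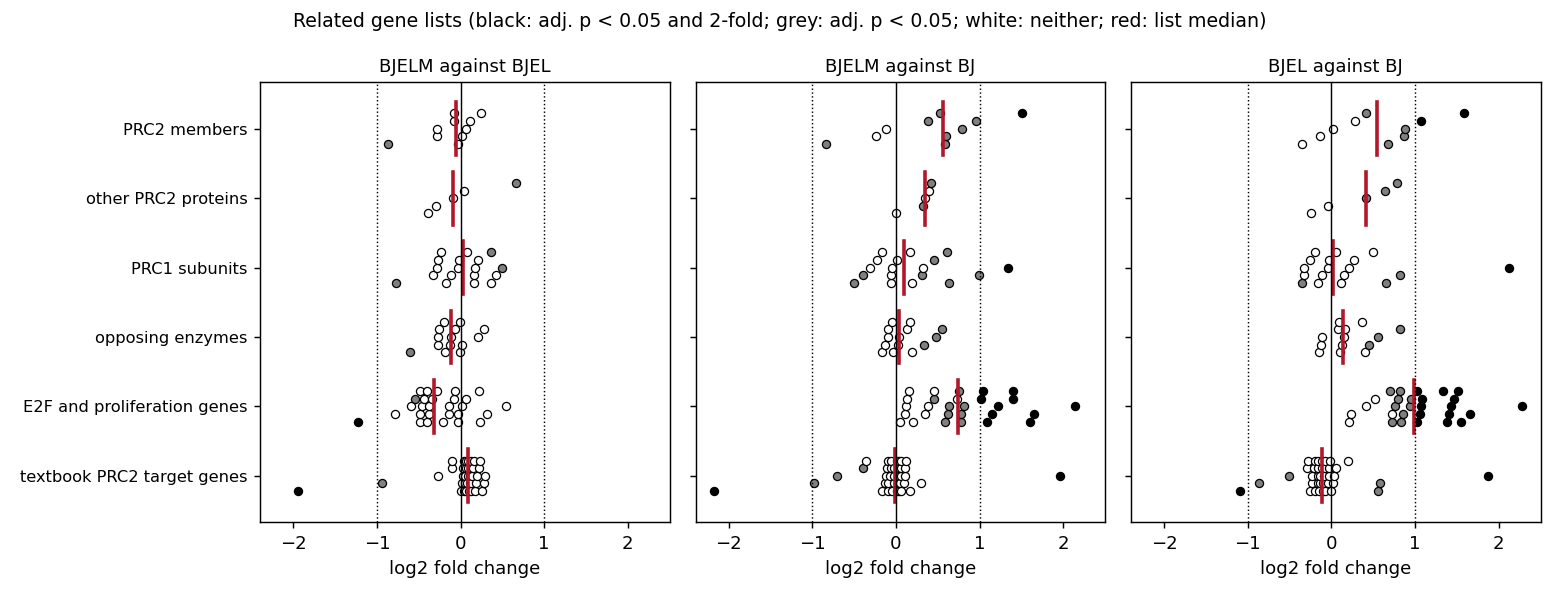
Log2 fold change (horizontal axis) of the PRC2 genes and of 5 related gene lists (vertical axis) in the 3 comparisons, with a point for each gene and a red bar for the median of a list; black points passed both thresholds, grey points the adjusted p alone, white points neither. In BJEL against BJ the median is 0.55 for the PRC2 genes and 0.98 for the E2F and proliferation genes, and -0.11 for the textbook targets of PRC2.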

How the data were processed

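Total RNA was hybridised to Affymetrix Gene ST arrays, 2 for each of BJELM, BJEL and BJ. The deposited log2 signals come from RMA, which the authors ran in Affymetrix Expression Console 1.3.1 according to the submitters' notes on processing. The method subtracts background, gives every array the same distribution and combines the probes of a probe set, so that a shift shared by most genes would not be seen. Which genome build the array annotation uses is not given in the sources used here. Arrays have no read depth, and precision is limited by their number.

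Of 33297 probe sets, 19460 had 1 gene symbol in the platform annotation, which gave 18417 genes, each by its probe set with the highest mean. Groups came from the cell line labels. One limma 3.58.1 fit in R 4.3.3 held all 6 arrays, estimating a mean for each line without a block, as 2 arrays per line need a shared spread, with 3 residual degrees of freedom and a prior of 3.13. Tests were two-sided, with Benjamini-Hochberg adjustment over all genes of a comparison. The fit was tested on simulated data with 200 changed genes. A gene was called at an adjusted p under 0.05 and at least 2-fold.

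The members, lists and tests were chosen with earlier results of these data known, so that the lists are no independent support. All members were named. From other lists up to 4 called genes with the largest change, or 2 genes where none was called, could be named, with all other PRC2 proteins, KDM6A, KDM6B and the label checks TERT, MYC and CCND2. Likeness was ranked by Pearson r over the 6 arrays, the 3 highest being named. Promoters were taken from RefSeq (GRCh38.p14), with a single start for each gene, where all 10 members matched, and the words were sought by exact match. Alternatives were each array left out, the replicate block, only the groups compared, quantile or median scaling, an intensity trend with a robust prior, filters on dim genes, other uses of probe sets, other fold minimums and a Welch t-test for unequal variances. The Welch test stood in for the modified t-test of the study, which was not run. Outlying arrays cannot be sought by rule in groups of 2.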

Additional observations from a re-analysis of the deposited data

How the results depend on the processing

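Of 450 values of single PRC2 genes under the alternatives, 433 kept their direction and their side of the combined fold and adjusted p threshold and 10 changed sign. By the adjusted p alone, 403 kept direction and side, 35 no longer passed, 26 of them with 1 array left out, and 2 passed newly. All 10 genes lie above the median level of 7.26, so the filters on dim genes removed none. The number called in BJEL against BJ was 2, and with 1 array left out it ran between 1 (without BJ replicate 1) and 4 (without BJ replicate 2). On the arrays labelled BJELM it was 1 against BJ, between 1 and 2 with 1 array left out, and 0 against BJEL, between 0 and 1. Quantile normalization left 1 call in BJEL against BJ. Without a fold minimum the counts were 6 in BJEL against BJ, 8 on the arrays labelled BJELM against BJ and 1 against BJEL, and with a fold minimum of 1.5 they were 5, 6 and 1. Over all genes, dropping the fold minimum gave 3228, 5195 and 1992 calls in these comparisons, in place of 954, 1619 and 494. The fold minimum of 1.5 gave 2110, 3562 and 1345 of all 18417 genes. The Welch t-test for unequal variances, unadjusted, called MTF2 alone in each comparison with BJ, and 465, 880 and 231 of all genes. After Benjamini-Hochberg adjustment it called 0 PRC2 genes and 0 of all genes in each comparison. The modified t-test that the study describes was not run, so these are not its counts.

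Signs turned for JARID2, PHF1, EZH1, PHF19 and RBBP4, in comparisons where none of them passed the adjusted p. With 1 array left out, JARID2 ran between -0.33 and 0.055 in BJEL against BJ, where it was 0.055 without BJ replicate 1 and 0.05 without BJEL replicate 2. On the arrays labelled BJELM against BJ it ran between -0.35 and 0.10, with 0.071 without BJ replicate 1 and 0.10 without BJELM replicate 2. Against BJEL it ran between -0.21, without BJELM replicate 1, and 0.24, with -0.17 without BJEL replicate 2. In the same comparison EZH1 ran between -0.018, without BJELM replicate 1, and 0.25, and PHF19 between -0.27 and 0.11, its value without BJELM replicate 2. PHF1 stood at -0.081 in BJEL against BJ with quantile normalization, and RBBP4 at 0.0053 on the arrays labelled BJELM against BJEL with median centring. The cause was not tested. Neither scaling moved the median of all genes by over 0.1.

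Arrays of different lines with the same replicate number deviated together, with correlations of deviations of 0.45 to 0.55, but the labels do not say what a number stands for, so the pairing was not used. With the replicate block the counts of called PRC2 genes were 2 in BJEL against BJ, 1 on the arrays labelled BJELM against BJ and 0 against BJEL, as without it, and of all genes 993, 1644 and 544 were called. AEBP2 in BJEL against BJ also passed the adjusted p with the block, at 0.28 (adjusted p = 0.0492). The difference between the changes of EZH2 and EZH1 kept its sign with each array left out and with quantile normalization. Median centring cannot move a difference within an array, and the other alternatives were not run for it. With 2 arrays per line, small changes such as those of EZH1 and JARID2 may lie below what the fit can detect.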
